A study of Mus musculus with 4 samples.

Results

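The 44 genes described here carry out DNA replication and mitosis or set the decision to enter the cycle, and all 44 were found by symbol among the 21993 genes of the libraries. They comprise 15 genes used mainly in S phase, 20 genes of mitosis, and 9 genes of G1, namely the D-type and E-type cyclins, their kinases and the inhibitors p21 and p27. The RNA came from mouse uteri at gd11.5 (gestational day) of pregnancies sired by B6 males, from cells that the labels call NK cells, sorted by flow cytometry as NK1.1+ CD45+ cells lacking CD3. In 2 libraries the mice carried Cre recombinase under the control of Ncr1 (Ncr1Cre), in the other 2 they had no Cre (control), and both groups share the rest of their genotype. Ncr1 is active in NK cells and some related innate lymphoid cells, which limits where the Cre is expressed. Whether each library is a separate mouse is not stated, so p-values describe variation between libraries that could be purely technical.

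A dividing cell copies its DNA once in S phase and separates the copies in mitosis. Cyclin D with CDK4 or CDK6, and then cyclin E with CDK2, inactivate the RB protein and release E2F factors, which switch on S-phase genes, while many mitotic genes are switched on later through CHR and CCAAT-box elements in their promoters. In the mouse decidua uterine NK cells proliferate around implantation, decidual stromal cells proliferate and then become polyploid by copying DNA without dividing, and trophoblast giant cells do the same. Transcript levels of these genes therefore reflect both the number of cycling cells and the kinds of cycle present.

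The promoters were searched for the letters of these elements. RefSeq promoter windows (build GRCm38.p6, 250 bases before to 50 after the start site) were matched by symbol for 35 of the 44 genes. The CHR letters TTTGAA, read on both strands, stood in the windows of 11 of 16 mitotic genes, 2 of 13 S-phase genes and 0 of 6 G1 genes, against 17.9% of all 32851 windows. The CCAAT-box letters CCAAT stood in 14 of 16 mitotic, 10 of 13 S-phase and 2 of 6 G1 genes, against 37.4% of all windows. An E2F match (TTTCCCGC, TTTCGCGC, TTTGCCGC or TTTGGCGC on either strand) stood in 6 of 13 S-phase genes, 1 of 16 mitotic genes and 0 of 6 G1 genes, against 2.26%. Genes with more than 1 annotated start had several windows searched, and a match is only a match of letters. In 31 of the 39 windows of these genes, the bases after the start site were found in a GENCODE M21 transcript of the gene. Positions relative to the start site are less certain for the other windows. Of the called genes with a matched window, those that differed most between the genotypes in each class are shown. Their windows are given up to the base before the start site, 5′ to 3′, with matches in capitals. The libraries were processed on an earlier build, mm9, so these coordinates do not apply to them.
Rrm2 (chr12:24708004-24708253, plus strand): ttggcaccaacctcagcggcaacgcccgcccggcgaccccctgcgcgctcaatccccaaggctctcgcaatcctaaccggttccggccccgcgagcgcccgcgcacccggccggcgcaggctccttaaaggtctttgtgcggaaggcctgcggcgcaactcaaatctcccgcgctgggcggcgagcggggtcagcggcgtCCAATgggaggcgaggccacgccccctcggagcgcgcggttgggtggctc
Uhrf1, upstream start (chr17:56303087-56303336, plus strand): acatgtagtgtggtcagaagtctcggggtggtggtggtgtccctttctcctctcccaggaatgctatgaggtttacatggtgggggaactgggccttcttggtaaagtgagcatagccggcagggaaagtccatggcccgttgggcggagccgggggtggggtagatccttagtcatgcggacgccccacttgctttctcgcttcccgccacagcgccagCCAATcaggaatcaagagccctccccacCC
Uhrf1, downstream start (chr17:56304063-56304312, plus strand): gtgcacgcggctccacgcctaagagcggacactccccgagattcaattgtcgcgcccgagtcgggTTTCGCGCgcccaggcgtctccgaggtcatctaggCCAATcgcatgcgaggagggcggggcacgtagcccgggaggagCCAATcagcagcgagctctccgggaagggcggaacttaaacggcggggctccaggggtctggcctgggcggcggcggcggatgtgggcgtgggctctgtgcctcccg
Ube2c (chr2:164769679-164769928, plus strand): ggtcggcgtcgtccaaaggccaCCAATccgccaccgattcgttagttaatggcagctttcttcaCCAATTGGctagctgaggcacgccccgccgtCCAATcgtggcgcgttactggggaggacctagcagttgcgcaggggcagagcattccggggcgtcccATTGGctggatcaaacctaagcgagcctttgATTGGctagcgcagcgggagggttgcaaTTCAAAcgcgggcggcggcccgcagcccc
Plk1 (chr7:122159185-122159434, plus strand): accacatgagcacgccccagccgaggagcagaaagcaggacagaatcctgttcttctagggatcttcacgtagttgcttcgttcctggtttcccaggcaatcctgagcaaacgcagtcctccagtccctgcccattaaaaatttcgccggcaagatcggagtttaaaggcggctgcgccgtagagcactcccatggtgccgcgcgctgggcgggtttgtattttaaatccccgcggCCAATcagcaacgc
Cdk6 (chr5:3343643-3343892, plus strand): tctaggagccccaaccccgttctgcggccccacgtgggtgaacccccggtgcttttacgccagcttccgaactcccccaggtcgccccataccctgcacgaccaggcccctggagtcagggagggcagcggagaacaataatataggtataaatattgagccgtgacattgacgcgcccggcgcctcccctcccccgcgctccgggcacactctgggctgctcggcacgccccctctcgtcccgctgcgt
Ube2c held 6 CCAAT boxes, of which 1 pair overlaps, and a CHR match from base -29 to -24. Plk1 held a CCAAT box from base -14 to -10, and its CHR match lay after the start site at bases 31 to 36, beyond the part shown. Rrm2 held a single CCAAT box, from base -50 to -46. The upstream Uhrf1 window ends inside a match that runs to base 3, the downstream Uhrf1 window held an E2F match from base -185 to -178, and the Cdk6 window held none of these letters.

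The libraries went against their label: transcripts that define NK cells were scarce, and those of stroma and epithelium were abundant. The labels may therefore not describe the cells sequenced, and every genotype difference given here is one between these libraries, not one shown in NK cells. Markers of other cells also differed widely between them. Levels are in FPKM, fragment numbers divided by transcript length and by the mapped total of each library, which take length into account and so allow genes to be compared within a library. Ncr1 itself was listed at 0 and 0.15 FPKM in Ncr1Cre and at 0.14 and 0.36 in control, and Klrb1c (NK1.1) at 0.92 and 0.67 against 0.45 and 0.97. Of the CD3 genes, Cd3e was listed at 0.080 and 0.13 FPKM in Ncr1Cre and Cd3d at 0.11 and 0.13, against 0 in both control libraries. Cd3g stood at 0.48 and 0.28 FPKM in Ncr1Cre against 0.56 and 0.37 in control, with overlap. Ptprc (CD45) stood at 4.39 and 5.16 FPKM in Ncr1Cre and at 2.89 and 2.57 in control. The summed level of 15 NK-cell markers was 46.4 to 47.1 FPKM in Ncr1Cre and 30.8 to 31.1 in control, with 5 of 8 tested members higher and 0 lower (limma, adjusted p under 0.05). Of all tested genes 30.9% were higher and 17.6% lower. The 5 higher markers were Gzmb, Prf1, Il2rb, Itga2 and Ptprc. Ptprc lost its call without the filter on low values (adjusted p = 0.0666) and without control replicate 2. Of the 8 tested markers Gzma alone overlapped between genotypes, and Ncr1, Klrb1c and Klrd1, too low to be tested, overlapped as well. Epithelial markers (12 of 12 higher) summed to 48634 to 51587 FPKM in Ncr1Cre against 10116 to 10232, trophoblast markers (9 of 10 higher, Gcm1 listed at 0 throughout) to 1123 to 1311 against 435 to 474, and macrophage and dendritic cell markers (8 of 9 higher) to 104 to 105 against 31.1 to 33.4. Erythroid markers (5 of 5 higher) summed to 669 to 788 FPKM against 69.2 to 77.4, neutrophil markers (3 of 4 higher) to 731 to 787 against 133 to 142, and endothelial markers (4 higher and 2 lower of 8) to 45.1 to 45.7 against 27.5 to 28.7. Single genes made up most of some sums. Prap1, a uterine epithelial gene, had 46369 and 49335 FPKM in Ncr1Cre against 9530 and 9667 in control, and Ltf, which uterine epithelium also secretes, had 710 and 767 FPKM of the neutrophil sum against 130 and 138. S100a8 had 9.84 and 8.30 FPKM in Ncr1Cre against 0.71 and 0.85 in control, and the neutrophil gene Ly6g at most 0.087 in any library. Markers of decidual stroma (12 lower and 1 higher of 14) summed to 12030 to 12204 FPKM in Ncr1Cre against 25399 to 26163. Among them Col1a1 had 4515 and 4459 FPKM in Ncr1Cre against 7923 and 8359 in control. The 1 higher was Prl8a2, at 21.9 and 24.7 FPKM in Ncr1Cre against 3.35 and 4.12 in control, and Wnt4 was higher without being called. Smooth-muscle markers (8 of 8 lower) summed to 215 to 222 FPKM in Ncr1Cre against 595 to 607. T-cell markers summed to under 2 FPKM in every library, and the B-cell markers Ms4a1 and Pax5 were listed at 0 in all 4. Cd79b, the 1 B-cell marker that was tested, was called higher (limma, adjusted p = 0.0075). It stood at 2.27 and 3.43 FPKM in Ncr1Cre against 0.93 and 0.71 in control. The part of these markers' cells in the differences given below was not tested. In such libraries fewer cells of a type and less RNA per cell cannot be told apart.

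The genes were expressed at low levels in both genotypes. The median over the 44 genes was 2.72 and 2.61 FPKM in Ncr1Cre and 2.35 and 2.38 FPKM in control. Of the 44 genes, 38 and 37 lay below the median of all tested genes in Ncr1Cre, and 39 and 38 in control. Cdk4, Cdkn1a, Pcna and Ccnd3 were the genes that exceeded 10 FPKM in every library. The median mitotic gene stood at 1.83 and 1.73 FPKM in Ncr1Cre and 1.82 and 1.72 FPKM in control, and the median S-phase gene at 3.44 and 3.87 FPKM in Ncr1Cre and 3.60 and 3.69 FPKM in control. The medians of both classes thus lay close together in the 4 libraries. Steps between low values imply a depth at which a single fragment per kb equals 0.0260 to 0.0477 FPKM, so genes far below 1 FPKM rest on few fragments. Ccne2, for example, rested on about 34.4 and 21.1 fragments in Ncr1Cre and 15.7 and 9.13 in control, reckoned on its longest annotated transcript.

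**Figure D1:**
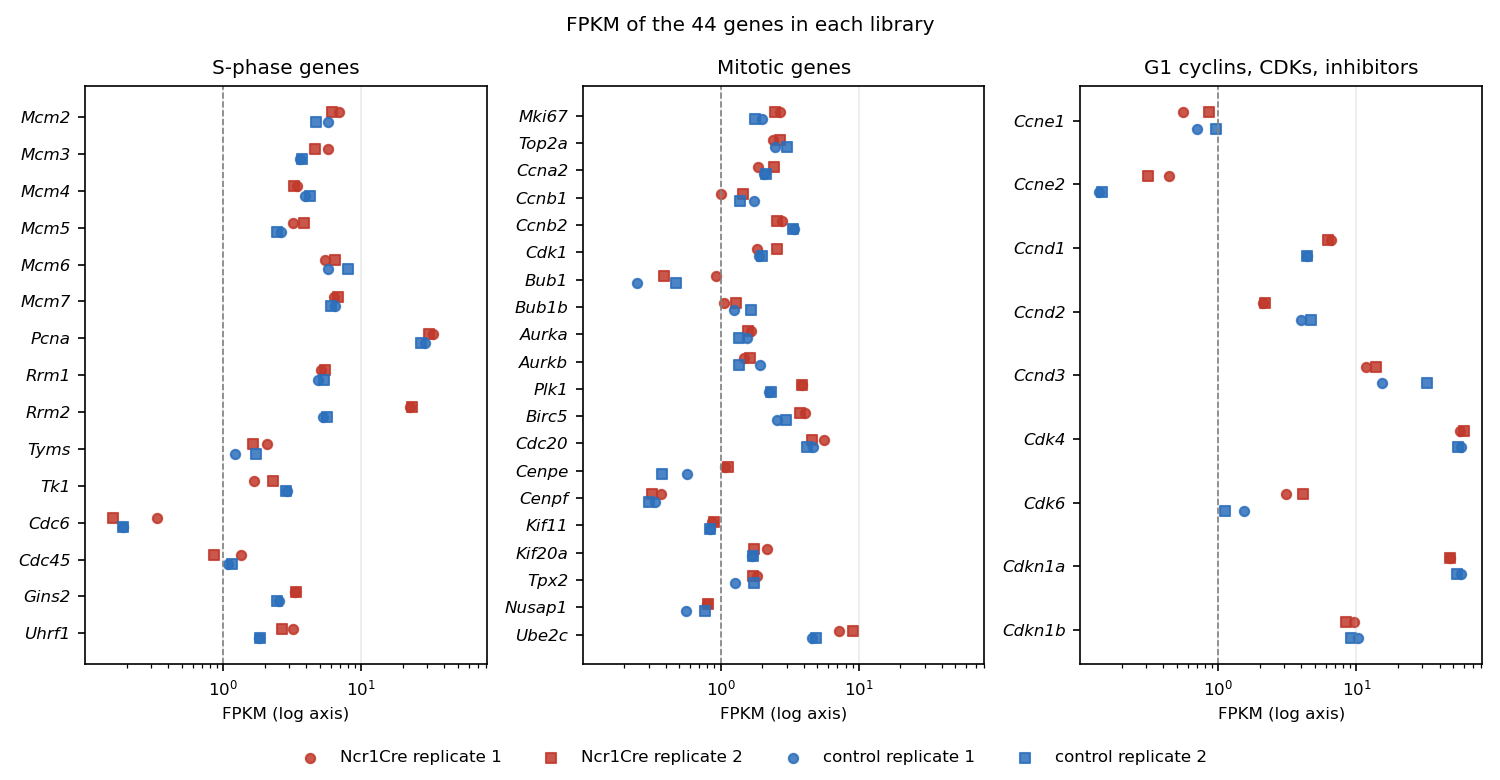
FPKM on a log axis of each of the 44 genes in the 2 Ncr1Cre libraries (red) and the 2 control libraries (blue), with circles for replicate 1 and squares for replicate 2. The values of 21 of the 36 tested genes do not overlap between genotypes, against 76.2% of all tested genes. Rrm2, at 22.7 and 23.2 FPKM in Ncr1Cre, stands clear of its control values of 5.24 and 5.62. The dashed line marks 1 FPKM.

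As a set, the 44 genes had a smaller share of calls than the tested genes as a whole, 10 of 36 beside 48.5%. The comparison was not matched for expression level, and most of the 44 genes lay below the median of all tested genes. Of the 36 with a mean of at least 1 FPKM, 9 were higher and 1 was lower in Ncr1Cre (limma on log2(FPKM + 1), Benjamini-Hochberg adjusted p under 0.05 over the 11762 genes tested). The share higher was 25% of these 36 genes, where 30.9% of all tested genes were higher, and the share lower was 2.78%, where 17.6% were lower. The values of the genotypes did not overlap for 21 of the 36 genes, against 76.2% of all tested genes, with 15 higher (46.4% of all) and 6 lower (29.9% of all). The median log2 fold change was 0.11 over the 36 genes and 0.11 over all tested genes, with fold changes given as Ncr1Cre minus control on the log2(FPKM + 1) scale, which understates the change of low genes. Rrm2 alone changed by at least 1 on that scale, as did 12.7% of all tested genes. The split depended on scaling. After median rescaling 5 of the genes were higher and 5 lower (22.4% and 26.1% of all tested genes), with quantile normalization 5 and 5 (22.2% and 25.8%), and as TPM 4 and 5 (19.6% and 27.9%). Among all tested genes 63.7% of the calls were higher as deposited, and 46.2%, 46.3% and 41.2% under these scalings, with a median log2 fold change of -0.053, -0.054 and -0.11. With 2 libraries against 2, an exact permutation test cannot go below p = 0.333, so the tests rest on a spread shared across genes.

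**Figure D2:**
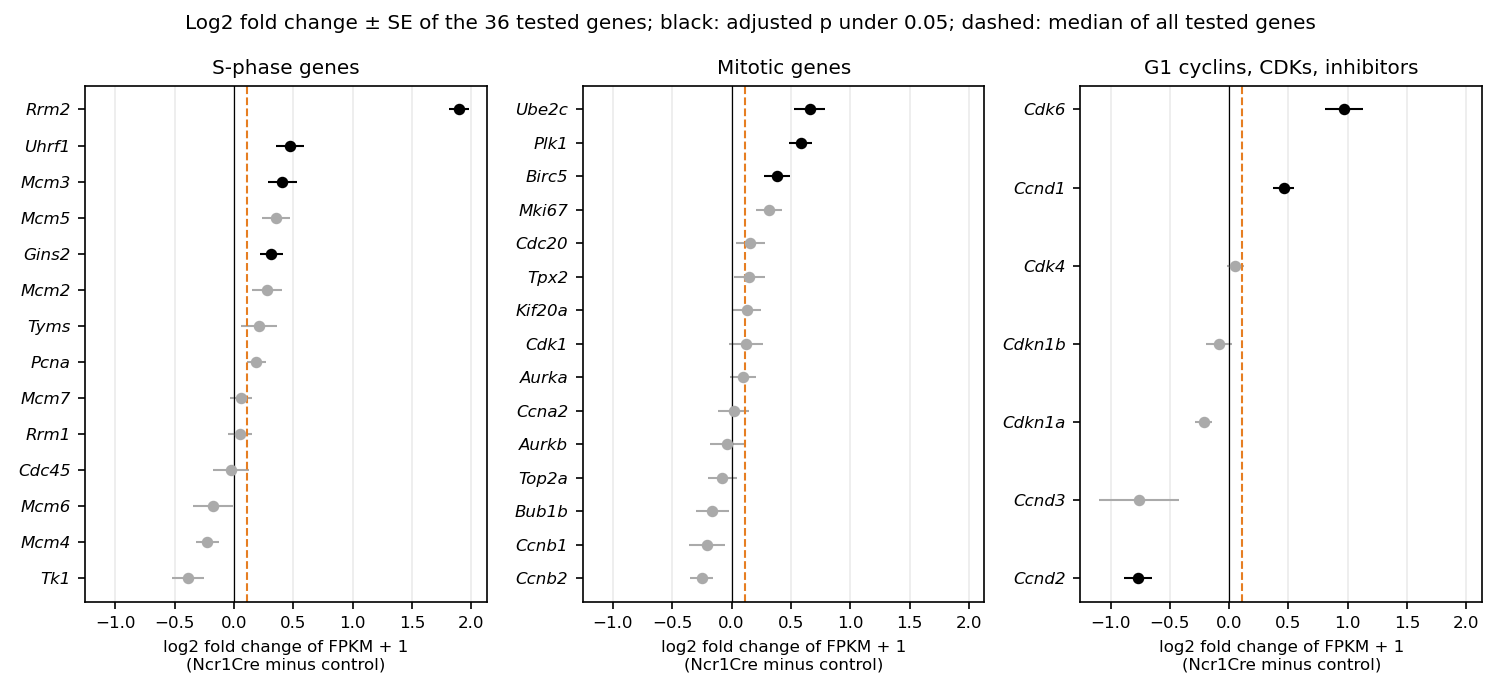
Log2 fold change (Ncr1Cre minus control, FPKM + 1) with its standard error for the 36 tested genes, by class, with called genes in black and the others in grey. Rrm2 at 1.90 stands apart from the other S-phase genes, most genes lie near the median of all tested genes (dashed, 0.11), and Ccnd1 and Ccnd2 lie on opposite sides of it at 0.46 and -0.77.

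Ribonucleotide reductase showed the largest difference among the 44 genes. The enzyme makes deoxyribonucleotides and consists of a large subunit, encoded by Rrm1, and a small subunit, encoded by Rrm2 in cycling cells or by the p53-inducible Rrm2b. Rrm2 had 22.7 and 23.2 FPKM in Ncr1Cre and 5.24 and 5.62 FPKM in control. Both Ncr1Cre libraries lay far above both control libraries, and the 4.22-fold ratio of means corresponded to a log2 fold change of 1.90 (SE 0.082, adjusted p = 0.000207). Across all 12 alternatives tried the adjusted p lay between 0.00019 and 0.00837. Rrm1, its partner, stood at 5.15 and 5.49 FPKM in Ncr1Cre and 4.84 and 5.40 in control, values that overlap (0.05, SE 0.10, adjusted p = 0.727). The ratio of Rrm2 to Rrm1, which a constant factor per library cannot change, was 4.40 and 4.22 in Ncr1Cre and 1.08 and 1.04 in control. Rrm2b, from the list of other replication genes, rose as well, at 63.3 and 82.1 FPKM in Ncr1Cre and 33.3 and 25.4 in control (1.28, SE 0.18, adjusted p = 0.00412), a call lost without the filter on low values (adjusted p = 0.0658). A processed pseudogene overlaps Rrm2b in the reference, so its level is less certain.

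The helicase that unwinds DNA at replication forks did not move as a unit. Its core is the MCM2 to MCM7 ring, which CDC45 and the GINS complex activate. Mcm3 stood at 5.73 and 4.63 FPKM in Ncr1Cre and 3.60 and 3.69 in control, and it rose by 0.41 (SE 0.12, adjusted p = 0.0437). Gins2, a GINS subunit, stood at 3.29 and 3.39 FPKM in Ncr1Cre and 2.52 and 2.47 in control and rose by 0.31 (SE 0.097, adjusted p = 0.0478). Neither call held under any of the 3 other scalings, where the adjusted p reached 0.233 for Mcm3 and 0.338 for Gins2. Without the filter on low values both calls were lost as well, with adjusted p of 0.148 for Mcm3 and 0.0857 for Gins2. Mcm3 also lost its call without Ncr1Cre replicate 1 or either control replicate, and Gins2 without any 1 of the 4 libraries. The other subunits went both ways without passing the test, from Mcm5 at 3.18 and 3.87 FPKM in Ncr1Cre against 2.62 and 2.44 in control (adjusted p = 0.0628) to Mcm4 at 3.44 and 3.27 against 3.92 and 4.26 (adjusted p = 0.122). The log2 fold change of Mcm4 was -0.39, -0.38 and -0.48 after median rescaling, quantile normalization and as TPM, with adjusted p of 0.0269, 0.0290 and 0.0223. Mcm2 (0.28), Mcm6 (-0.18), Mcm7 (0.06) and Cdc45 (-0.02) were not called, and in the reference Mcm7 and Cdc45 overlap other protein-coding genes on the opposite strand, as does Gins2. Cdc6, which loads the MCM ring at origins, had 0.33 and 0.16 FPKM in Ncr1Cre and 0.19 in both control libraries, too low to be tested.

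The remaining S-phase genes showed small differences. Uhrf1, which brings the maintenance DNA methyltransferase to newly copied DNA, stood at 3.20 and 2.65 FPKM in Ncr1Cre and at 1.82 and 1.84 in control, without overlap. It rose by 0.47 (SE 0.12, adjusted p = 0.0249). The call was lost under all 3 other scalings (adjusted p up to 0.0989) and without the filter on low values (0.101). It was also lost without Ncr1Cre replicate 1 or either control replicate. Pcna, the sliding clamp of DNA polymerases and the most abundant S-phase gene, had 33.3 and 30.6 FPKM in Ncr1Cre and 28.9 and 26.9 in control (0.19, adjusted p = 0.118). For thymidylate supply, Tyms, which makes it anew, had 2.08 and 1.64 FPKM against 1.23 and 1.72 in control, while Tk1, which salvages thymidine, had 1.67 and 2.28 FPKM against 2.89 and 2.85. Tk1 was lower in both Ncr1Cre libraries without passing the test (-0.39, SE 0.14, adjusted p = 0.0668), and it passed as lower after median rescaling, quantile normalization and as TPM, with adjusted p of 0.0265, 0.0278 and 0.0223, as it did without Ncr1Cre replicate 2 (0.0296). Tk1 overlaps Afmid on the opposite strand, and the sources used here do not state whether counting used strand. The S-phase genes summed to 104 and 101 FPKM in Ncr1Cre against 76.7 and 77.3 in control, and without Rrm2 to 81.3 and 78.1 against 71.5 and 71.7. Of the 14 tested S-phase genes 28.6% were higher and 0% lower, beside 30.9% and 17.6% of all tested genes.

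Of the 15 tested mitotic genes 3 rose and 0 fell, a share of 20% beside the 30.9% of all tested genes that were higher. Plk1, a kinase that drives mitotic entry and spindle assembly, stood at 3.89 FPKM in both Ncr1Cre libraries and at 2.22 and 2.31 in control. It rose 1.71-fold (0.58, SE 0.096, adjusted p = 0.00706) and stayed called under all 11 alternatives in which it was tested, with adjusted p up to 0.0413. Ube2c, the ubiquitin-conjugating enzyme of the anaphase-promoting complex, stood at 7.17 and 9.06 FPKM in Ncr1Cre and 4.56 and 4.91 in control and rose 1.71-fold (0.66, SE 0.13, adjusted p = 0.0122). The call was lost without control replicate 1 (adjusted p = 0.0571) and without the filter on low values (0.0861), and Tnnc2 overlaps it on the opposite strand. Birc5, which encodes survivin of the chromosomal passenger complex, stood at 4.04 and 3.75 FPKM in Ncr1Cre and at 2.54 and 2.96 in control and rose (0.39, SE 0.11, adjusted p = 0.0385). Its call was lost when any 1 of the 4 libraries was left out, without the filter on low values, and under each other scaling (adjusted p up to 0.200). Plk1 and Ube2c thus differed under each scaling, and their promoters above both hold CCAAT and CHR letters, as do those of mitotic genes that were not called.

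The genes most often used to count dividing cells did not pass the test. Mki67, which encodes the Ki-67 antigen, stood at 2.67 and 2.49 FPKM in Ncr1Cre and 2.0 and 1.76 in control (0.31, SE 0.11, adjusted p = 0.0650). Top2a, which untangles sister chromatids, stood at 2.39 and 2.69 FPKM in Ncr1Cre and 2.49 and 3.0 in control (-0.08, SE 0.12, adjusted p = 0.625). The values of Mki67 did not overlap between genotypes, whereas those of Top2a did. Cdk1, the mitotic kinase, had 1.84 and 2.56 FPKM in Ncr1Cre against 1.89 and 1.98 in control, and its partners Ccna2 (0.02), Ccnb1 (-0.21) and Ccnb2 (-0.25) did not follow in 1 direction. Ccnb2 stood at 2.76 and 2.56 FPKM in Ncr1Cre and 3.38 and 3.35 in control, and it passed as lower under each other scaling, with adjusted p of 0.0204, 0.0198 and 0.0218 after median rescaling, quantile normalization and as TPM. The Aurora kinase genes Aurka and Aurkb, the checkpoint gene Bub1b, the anaphase activator Cdc20, the cytokinesis motor gene Kif20a and Tpx2, an activator of Aurora A, had log2 fold changes between -0.16 and 0.16, and none was called. A further 5 mitotic genes were below the filter. Cenpe, a kinetochore motor gene, had 1.07 and 1.13 FPKM in Ncr1Cre against 0.57 and 0.38 in control, while Bub1, Cenpf, Kif11 and Nusap1 lay between 0.25 and 0.93 FPKM in all 4 libraries. In the reference Ccna2, Cdc20, Kif20a and Nusap1 overlap protein-coding genes on the opposite strand.

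The D-type cyclins differed from each other in direction. Ccnd1 stood at 6.59 and 6.24 FPKM in Ncr1Cre and at 4.41 and 4.37 in control, and it rose 1.46-fold (0.46, SE 0.090, adjusted p = 0.0120). Ccnd2 stood at 2.10 and 2.17 FPKM in Ncr1Cre and at 3.98 and 4.73 in control, and it fell, with a ratio of means of 0.490 (-0.77, SE 0.11, adjusted p = 0.00512). Neither gene overlapped between the genotypes, and the ratio of Ccnd1 to Ccnd2 was 3.13 and 2.88 in Ncr1Cre against 1.11 and 0.924 in control. Ccnd2 stayed called under all 11 alternatives in which it was tested, with adjusted p up to 0.0461. The call of Ccnd1 was lost as TPM (adjusted p = 0.0836) and without control replicate 1 or 2 (adjusted p up to 0.0575). Ccnd3, the D cyclin tied to polyploidy of mouse decidual cells, had the highest level of the 3, at 11.7 and 13.9 FPKM in Ncr1Cre and 15.3 and 32.2 in control. Control replicate 2 stood far above the other 3 libraries, and the gene was not called (-0.76, SE 0.34, adjusted p = 0.123). Without control replicate 1 its log2 fold change was -1.27 (adjusted p = 0.00586), and without control replicate 2 it was -0.25 (adjusted p = 0.241). Bysl overlaps Ccnd3, and LTO1 overlaps Ccnd1, on the opposite strand. Of the summed FPKM of the 3 cyclins, Ccnd1 took 32.3% and 28.0% in Ncr1Cre and 18.6% and 10.6% in control.

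**Figure D3:**
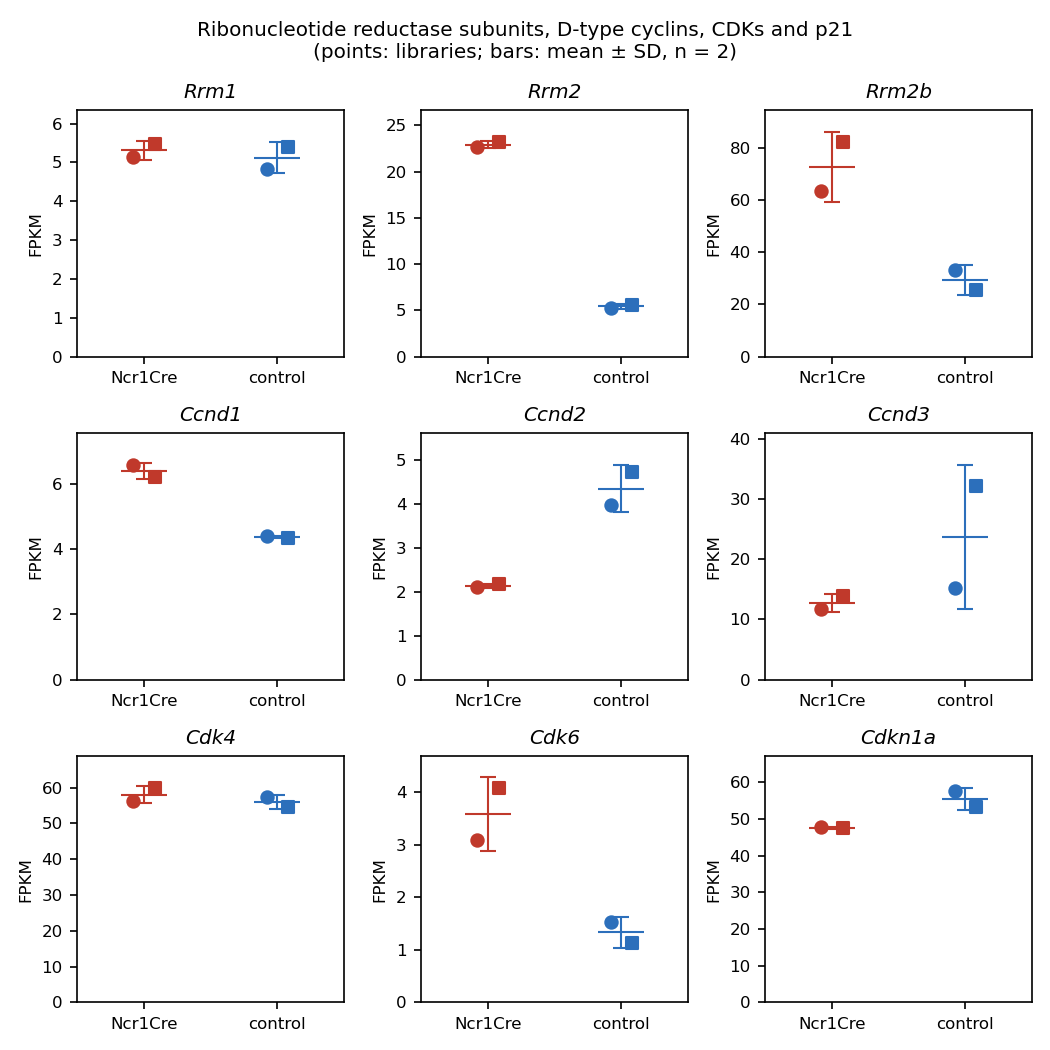
FPKM in each library (points; circle, replicate 1; square, replicate 2) with the mean and SD (n = 2) for the ribonucleotide reductase subunits, the D-type cyclins, their kinases and Cdkn1a, each on its own axis from 0. Rrm2, Ccnd1 and Cdk6 lie higher and Ccnd2 lower in Ncr1Cre, while Rrm1 and Cdk4 overlap and the control values of Ccnd3, 15.3 and 32.2, lie far apart.

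Of the kinases that D-type cyclins activate, Cdk6 rose and Cdk4 was not called. Cdk6 stood at 3.08 and 4.07 FPKM in Ncr1Cre and at 1.53 and 1.13 in control, and it rose 2.69-fold (0.97, SE 0.16, adjusted p = 0.00705). The call was lost without the filter on low values (adjusted p = 0.0739), and in the other alternatives that tested it the adjusted p reached 0.0325. Cdk4, the most abundant of the 44 genes, stood at 56.3 and 59.8 FPKM in Ncr1Cre and 57.4 and 54.6 in control, with overlap (0.05, SE 0.072, adjusted p = 0.598). Cdk4 therefore exceeded Cdk6 by 18.3 and 14.7 times in Ncr1Cre and by 37.4 and 48.4 times in control. In the reference Tspan31 overlaps Cdk4 on the opposite strand, so the level of Cdk4 is less certain. Among the inhibitors, Cdkn1a, which encodes p21, had 47.8 and 47.4 FPKM in Ncr1Cre and 57.5 and 53.3 in control (-0.21, SE 0.072, adjusted p = 0.0595). Its call was on the edge, with an adjusted p of 0.0102, 0.0108 and 0.00918 after median rescaling, quantile normalization and as TPM, and it passed with the replicate number as a block. Cdkn1b, which encodes p27, had 9.67 and 8.43 FPKM in Ncr1Cre and 10.2 and 9.14 in control (adjusted p = 0.540). The E-type cyclins, which act with CDK2 at the start of S phase, lay below the filter. Ccne1 stood at 0.55 and 0.86 FPKM in Ncr1Cre against 0.70 and 0.95 in control. Ccne2, which Ints8 overlaps on the opposite strand, stood at 0.44 and 0.31 against 0.14 and 0.14. The 9 G1 genes summed to 138 and 143 FPKM in Ncr1Cre and 151 and 161 in control. Of the 7 tested G1 genes 28.6% were higher and 14.3% lower, beside 30.9% and 17.6% of all tested genes.

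Beyond the 44 genes, 4 further lists of cell-cycle genes were examined. Of 37 other replication genes tested, 9 rose and 2 fell (median log2 fold change 0.19), and of 27 other mitotic genes 9 rose and 1 fell (0.14). These shares of higher genes, 24.3% and 33.3%, compare with 30.9% over all tested genes, and after median rescaling 4 rose and 5 fell among replication genes and 4 rose and 2 fell among mitotic genes. Quantile normalization gave 4 and 5, and 4 and 3, and TPM gave 4 and 5, and 2 and 3. Of all tested genes 17.6% were lower as deposited. Under these scalings, in the same order, 22.4% were higher and 26.1% lower, 22.2% and 25.8%, and 19.6% and 27.9%. The largest rise among replication genes was that of Pole, the catalytic subunit of DNA polymerase epsilon, at 3.24 and 4.12 FPKM in Ncr1Cre and 0.76 and 0.56 in control (1.49, SE 0.14, adjusted p = 0.00135). Gmnn, which encodes geminin, the inhibitor of origin licensing, stood at 5.44 and 6.73 FPKM against 2.83 and 2.07 in control (1.04, SE 0.16, adjusted p = 0.00553), though with an adjusted p of 0.0659 without the filter. Both genes were higher in each Ncr1Cre library than in each control library. Pole overlaps a processed pseudogene in the reference, and Fen1, E2f5, Rbl2 and Ccnh overlap protein-coding genes on the opposite strand. Prim1 (primase, 0.63) and Fen1 (flap endonuclease, 0.55) rose as well, the call of Fen1 being lost under 6 alternatives, and Cdc7, the kinase that fires origins, fell by 0.50. Without the filter the adjusted p was 0.0775 for Prim1 and 0.0902 for Fen1, and Cdc7 lost its call too. Prim1 and Cdc7 also lost their calls without control replicate 2, and Fen1 without control replicate 1. In mitosis, Kif23, a kinesin of the central spindle, stood at 3.10 and 3.20 FPKM in Ncr1Cre against 1.56 and 1.4 in control (0.74, SE 0.10, adjusted p = 0.00421), and it was called in all 11 alternatives that tested it. Incenp (0.59), Cks2 (0.53), Spc24 (0.50), Mad2l1 (0.76) and Smc4 (0.39), genes of the passenger complex, the CDK subunit, the kinetochore, the spindle checkpoint and condensin, rose with calls that were lost under 2 to 7 alternatives. Without control replicate 1 the adjusted p was 0.0540 for Cks2, 0.0900 for Spc24 and 0.130 for Smc4, and without control replicate 2 it was 0.0507 for Incenp and 0.0791 for Mad2l1.

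The regulators were called in both directions, as were the tested genes as a whole. Of 16 tested genes of the E2F, RB and MYC families or of CDK activation (Cdc25a, Cdk2, Ccnh and Cdk7) 3 rose and 3 fell (median -0.02), and of 16 genes of CDK inhibition and arrest 4 rose and 3 fell (median -0.01). After median rescaling these were 2 and 6, and 4 and 4, after quantile normalization 2 and 6, and 4 and 5, and as TPM 1 and 7, and 3 and 5. The shares as deposited were 18.8% higher and 18.8% lower, and 25% and 18.8%, beside 30.9% and 17.6% of all tested genes. Of all tested genes, 22.4% were higher and 26.1% lower after median rescaling, 22.2% and 25.8% after quantile normalization, and 19.6% and 27.9% as TPM. Mycn, a MYC-family transcription factor, stood at 26.7 and 21.5 FPKM in Ncr1Cre and at 3.47 and 2.93 in control, a 7.52-fold rise (2.57, SE 0.14, adjusted p = 0.000294). This is a larger difference than that of any of the 44 genes on the same scale. E2f5 rose by 0.66 and Ccnh, which encodes the cyclin of the CDK-activating kinase, by 0.39, while E2f6 fell by 0.43, the DP partner gene Tfdp2 by 0.53 and Rbl2, which encodes the RB relative p130, by 0.31, calls lost under 3 to 10 alternatives. Ccnh lost its call under each other scaling (adjusted p = 0.26 as TPM). Without the filter the adjusted p was 0.0927 for E2f5 and 0.128 for Tfdp2. Each of these genes lost its call without control replicate 2, and Rbl2 and Ccnh lost it whichever library was left out. In those fits the log2 fold change was 0.53 to 0.79 for E2f5 and 0.28 to 0.49 for Ccnh. It was -0.45 to -0.41 for E2f6, -0.67 to -0.40 for Tfdp2 and -0.35 to -0.26 for Rbl2. Among arrest genes Gadd45a, a stress-induced gene, stood at 259 and 226 FPKM in Ncr1Cre and 60.8 and 51.2 in control (2.10, SE 0.11, adjusted p = 0.000310). Cdkn1c, the imprinted inhibitor p57, stood at 33 and 29.3 FPKM against 11.2 and 10.3 in control (1.46, SE 0.096, adjusted p = 0.000462), and Cdkn2b, the CDK4 and CDK6 inhibitor p15, at 6.71 and 5.26 against 2.17 and 1.56 (1.29, SE 0.17, adjusted p = 0.00321). None of these 3 inhibitors or arrest genes overlapped between genotypes, and the calls of Gadd45a, Cdkn1c and Mycn held under all 12 alternatives, whereas Cdkn2b had an adjusted p of 0.0521 without the filter. Tob1 rose by 0.52, Sesn1 fell by 0.51 and Gadd45b fell by 0.35. The call of Gadd45b was lost without control replicate 1, and that of Tob1 as TPM (adjusted p = 0.0754) and without the filter. The tested genes of CDK inhibition thus included both rises larger than those of the cyclins and, in Cdkn1a and Cdkn1b, genes that did not pass.

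**Figure D4:**
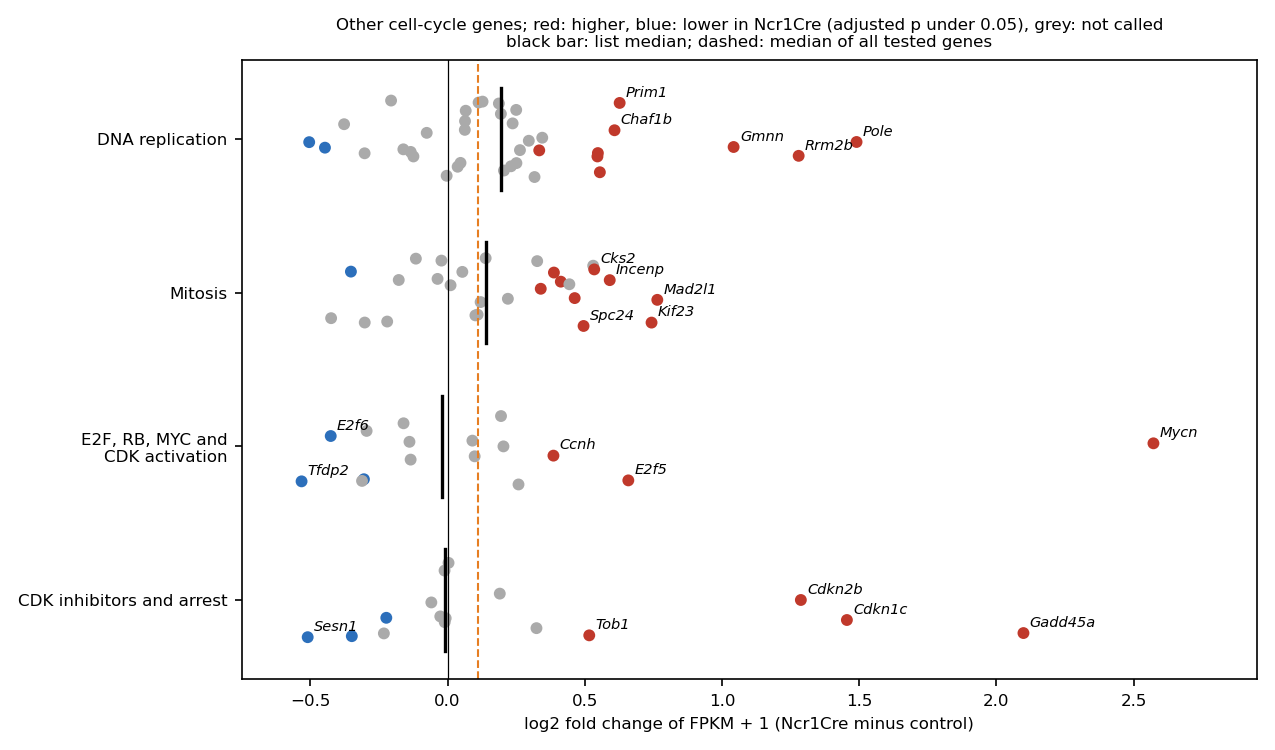
Log2 fold change (Ncr1Cre minus control, FPKM + 1) of the tested genes in 4 further cell-cycle lists, with genes called higher in Ncr1Cre in red, called lower in blue and not called in grey, and vertical jitter for legibility. List medians (black bars, 0.19, 0.14, -0.02 and -0.01 from top to bottom) lie near the median of all tested genes (dashed, 0.11), while Mycn, Gadd45a, Pole, Cdkn1c, Cdkn2b, Rrm2b and Gmnn lie beyond 1.

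**Figure D5:**
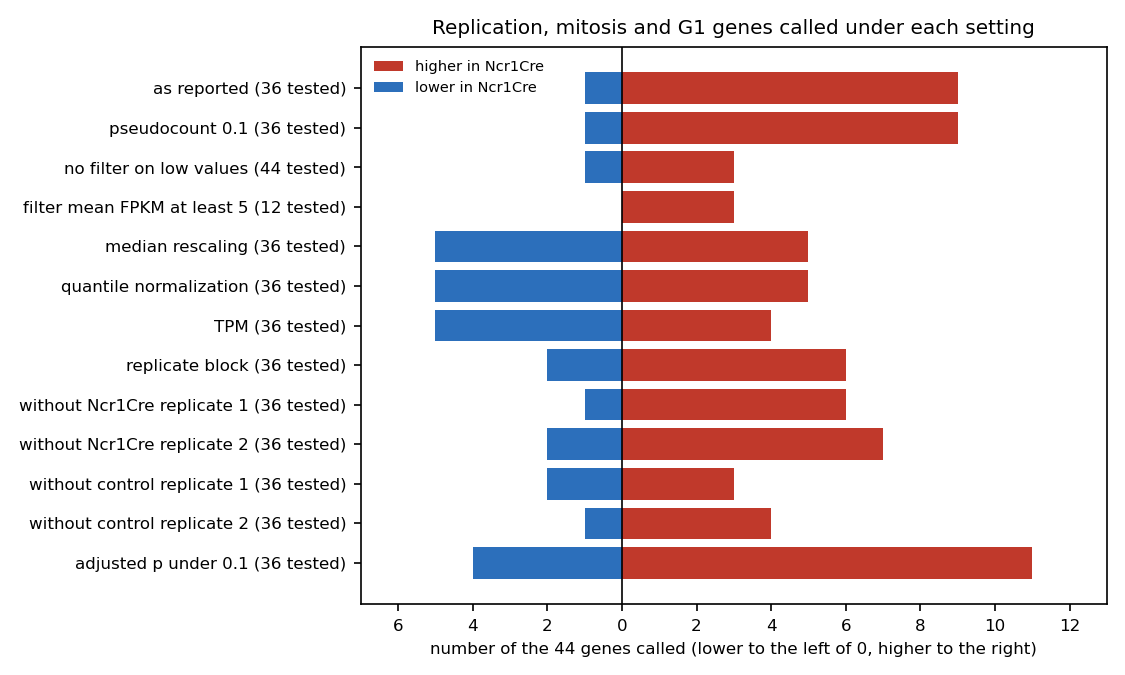
Number of the 44 genes called higher (red, right of 0) or lower (blue, left of 0) in Ncr1Cre as reported and under each alternative, with the number tested in brackets. The reported 9 higher and 1 lower became 5 and 5 with median rescaling, 5 and 5 with quantile normalization and 4 and 5 as TPM. Of all tested genes 30.9% were higher and 17.6% lower as reported. Under these scalings, in the same order, the shares were 22.4% and 26.1%, 22.2% and 25.8%, and 19.6% and 27.9%.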

How the data were processed

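RNA sequencing gave 4 libraries, grouped by the genotype and replicate numbers in the labels. Both groups carry a further allele that is not reported here. The deposited values are gene-level FPKM, which the authors obtained from Cufflinks using mm9, per the submitters' processing notes. Its version, the aligner, the annotation and the use of strand or of reads with several hits were not stated in the labels or notes used here. The FPKM values summed to 460108 and 468192 in Ncr1Cre and to 384852 and 396770 in control.

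FPKM are not counts, so limma 3.58.1 (R 4.3.3, trend option) was fitted to log2(FPKM + 1) for the 11762 of 21993 genes averaging 1 FPKM or more. Two-sided p-values were adjusted over those genes by Benjamini-Hochberg, with calls at 0.05. The test and the depth search were tested on simulated data. Totals of 26030000 and 22680000 fragments in Ncr1Cre and 38500000 and 20960000 in control made 34.6% to 37.7% of low values whole within 0.02 fragments, using GENCODE M21 lengths of genes with 1 transcript. These totals are estimates, so counts were not tested.

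The 44 genes and all lists were chosen with earlier results of these data known. All 44 genes are named, and of each further cell-cycle list the called genes with the smallest p, at most 6. Promoters are shown for the called genes with the largest change among those with a matched window, at most 2 per class. The called G1 genes Ccnd1 and Ccnd2 had no matched window. Alternatives were a pseudocount of 0.1, no filter, a filter at 5 FPKM, median rescaling, quantile normalization, TPM, the replicate number as a block, leaving out each library, and a threshold of 0.1.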

Additional observations from a re-analysis of the deposited data

How the results depend on the processing

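Of the 36 tested genes, the 10 called ones kept their direction in every 1 of the 12 alternatives that tested them, and Rrm2, Plk1 and Ccnd2 kept their call wherever they were tested. The 9 higher genes became 3 without the filter, 3 of 12 tested at a filter of 5 FPKM, 5 after median rescaling, 5 after quantile normalization and 4 as TPM, and 3 to 7 when a library was left out. The 1 lower gene became 0 at a filter of 5 FPKM, 5 under each of the 3 scalings, 2 with the replicate block, 4 at an adjusted p under 0.1, and 1 to 2 when a library was left out. The 4 higher S-phase genes became 1 without the filter, at 5 FPKM and under each scaling, 2 with the replicate block, and 1 to 3 when a library was left out. The 3 higher mitotic genes became 1 without the filter and 1 at 5 FPKM, and 1 to 2 when a library was left out. The 2 higher G1 genes became 1 without the filter, at 5 FPKM and as TPM, and 1 to 2 when a library was left out. The 1 lower G1 gene became 0 at 5 FPKM, 2 under each scaling, with the replicate block and at an adjusted p under 0.1, and 1 to 2 when a library was left out. Fewer genes are tested at 5 FPKM; the cause of the other shifts was not tested. The count over all genes was 5709, and 4092 to 5034 with a library left out, where the lone library is assumed to vary like the others.

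None of the genes whose value changed sign was called as reported. After median rescaling the log2 fold change was -0.10 for Mcm7, -0.12 for Rrm1, -0.14 for Ccna2, -0.045 for Cdk1, -0.063 for Aurka, -0.0044 for Cdc20, -0.032 for Kif20a, -0.012 for Tpx2 and -0.11 for Cdk4. After quantile normalization it was -0.12 for Mcm7, -0.11 for Rrm1, -0.16 for Ccna2, -0.063 for Cdk1, -0.10 for Aurka, -0.054 for Kif20a, -0.042 for Tpx2 and -0.11 for Cdk4. As TPM it was -0.17 for Mcm7, -0.052 for Pcna, -0.18 for Rrm1, -0.18 for Ccna2, -0.063 for Cdk1, -0.065 for Aurka, -0.051 for Cdc20, -0.037 for Kif20a, -2.0e-05 for Tpx2 and -0.20 for Cdk4. With a library left out it ranged from -0.39 to 0.030 for Mcm6, -0.020 to 0.11 for Rrm1, -0.19 to 0.14 for Cdc45, -0.18 to 0.021 for Top2a, -0.11 to 0.15 for Ccna2, -0.044 to 0.28 for Cdk1, -0.19 to 0.12 for Aurkb and -0.18 to 0.0020 for Cdkn1b. The labels share only replicate numbers, and the replicate differences of the genotypes correlated at 0.16 over genes. The replicate block gave 6 higher and 2 lower genes, with no call for Mcm3, Gins2 and Birc5 and a call for Cdkn1a.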
